A study of Mus musculus with 16 samples.

Results

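The 5 microRNAs (miRNAs) mmu-miR-99a, mmu-miR-99b, mmu-miR-100, mmu-miR-125a-5p and mmu-miR-125b-5p were followed in mouse sciatic nerve that lacked Dicer1 in Schwann cells. They were chosen by name, as the miR-99, miR-100 and miR-125 miRNAs whose genes share genomic clusters with let-7 genes. The rule used no measured value, but the group was proposed with earlier results of these data known. All 5 were on the array, and all 5 were among the 281 miRNAs counted as expressed of 650 names on the array. Each was read by 2 probes of 10 spots each, so that they made up 10 of 681 tested probes.

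Dicer is the nuclease that cuts hairpin precursors into mature miRNAs, which guide the silencing complex to messenger RNAs, mainly by pairing of the seed, the bases near the 5′ end. miRNAs of the miR-99 and miR-100 family are known for targeting Mtor and Igf1r, and those of the miR-125 family, the homologs of worm lin-4, for targeting Lin28. In many mammalian tissues the let-7 and miR-125 families accumulate as cells leave the progenitor state, and let-7 maturation is held back by Lin28. The Schwann cell is the glial cell of peripheral nerve and wraps large axons in myelin.

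Mutant mice had both Dicer1 alleles floxed and carried a Dhh-Cre transgene (fl), and control mice had 1 floxed and 1 wild-type Dicer1 allele and carried the same transgene (wt), so that Cre and at least 1 floxed allele were present in all mice. The strain was given as Dicer1tm1Bdh/J, and the desert hedgehog promoter that drives Cre is active in Schwann cells, so that axons and blood cells of the nerve are not its targets. Nerves were taken at embryonic day 17 (E17), before myelination starts, and at postnatal day 4 (P4), after it has started in controls. There were 4 groups of 4 mice (wt-E17, fl-E17, wt-P4 and fl-P4), and each mouse was hybridised to its own 1-colour Agilent mouse miRNA array, 16 arrays in all. The study's methods describe the mice of each age as littermate pairs of the 2 genotypes, and the labels do not say which arrays form a pair. Because whole nerve was measured, fewer Schwann cells and less RNA per Schwann cell cannot be told apart in any value below.

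The mature sequences are shown because the members fall into 2 seed families and because some differ by a single base. The array names were matched to RefSeq mature miRNAs (GRCm38.p6), with bases 2 to 8, the seed, in capitals.
mmu-miR-99a: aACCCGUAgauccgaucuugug
mmu-miR-100: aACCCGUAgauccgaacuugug
mmu-miR-99b: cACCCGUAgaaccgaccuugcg
mmu-miR-125a-5p: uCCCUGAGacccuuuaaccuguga
mmu-miR-125b-5p: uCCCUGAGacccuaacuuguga
Counted from 1 at the 5′ end, miR-99a and miR-100 differ by 1 substitution (U16A, miR-99a first). The miR-99a and miR-99b sequences differ by 4 (A1C, U11A, U16C and U21C), none of them in the seed. The miR-125 pair share their first 13 bases. A probe for one of a close pair may bind the other, and such cross-hybridization was not measured. Of 611 mouse names on the array, 374 were matched to a RefSeq sequence, all 5 members among them. No other matched name had the seed of miR-99 and miR-100, and miR-351 alone shared the miR-125 seed.

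The genes lie in 3 clusters on the plus strand (GRCm38.p6), each in the order miR-99 or miR-100, let-7, miR-125. On chromosome 16, mature miR-99a is at chr16:77598940-77598961. Mirlet7c-1 starts 721 bases and Mir125b-2 47337 bases downstream of the start of Mir99a. On chromosome 9, miR-100 is at chr9:41531437-41531458. Mirlet7a-2 follows Mir100 by 5291 bases and Mir125b-1 by 50501 bases, and all 3 lie within the long non-coding RNA gene Mir100hg. The cluster on chromosome 17 is the most compact, with miR-99b at chr17:17830194-17830215, let-7e at chr17:17830366-17830387 and miR-125a-5p at chr17:17830817-17830840. It spans 624 bases from the start of Mir99b to that of Mir125a and lies within the span of the protein-coding gene Spaca6. Mature miR-125b-5p is encoded by 2 genes, at chr16:77646279-77646300 and chr9:41581940-41581961, and the array does not tell the 2 loci apart. The same holds for let-7a, also encoded by Mirlet7a-1 on chromosome 13, and let-7c, also encoded by Mirlet7c-2 on chromosome 15, so that their signals cannot be assigned to the clusters. The partners let-7a, let-7c and let-7e are compared below, and their sequences show how close they are, with the seed in capitals.
mmu-let-7a: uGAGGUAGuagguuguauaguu
mmu-let-7c: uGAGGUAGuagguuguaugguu
mmu-let-7e: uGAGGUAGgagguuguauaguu
Relative to let-7a, let-7c carries A19G and let-7e carries U9G.

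All 10 member probes were well above background on all 16 arrays, and no member spot was saturated. Total miRNA signal before normalization was 36495 to 60374 scanner units on wt-E17 arrays, 39097 to 50827 on fl-E17, 122860 to 154076 on wt-P4 and 56841 to 83630 on fl-P4. The mutants at P4 thus had 51.3% of the control total (ratio of means on the log2 scale), without overlap between arrays. Values below are log2 signals after quantile normalization, which gives every array the same distribution and removes such overall differences. Differences without normalization are given for each comparison. The E17 arrays were on 1 slide and the P4 arrays on the other, scanned separately, and age cannot be told apart from slide, whereas each slide held 4 mutants and 4 controls. A miRNA was called when a probe differed by 0.5 or more on the log2 scale with a limma p-value, adjusted by Benjamini-Hochberg over 681 probes, no higher than 0.05, and no probe was called in the other direction. The brightest probe of each miRNA is given unless stated.

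**Figure D1:**
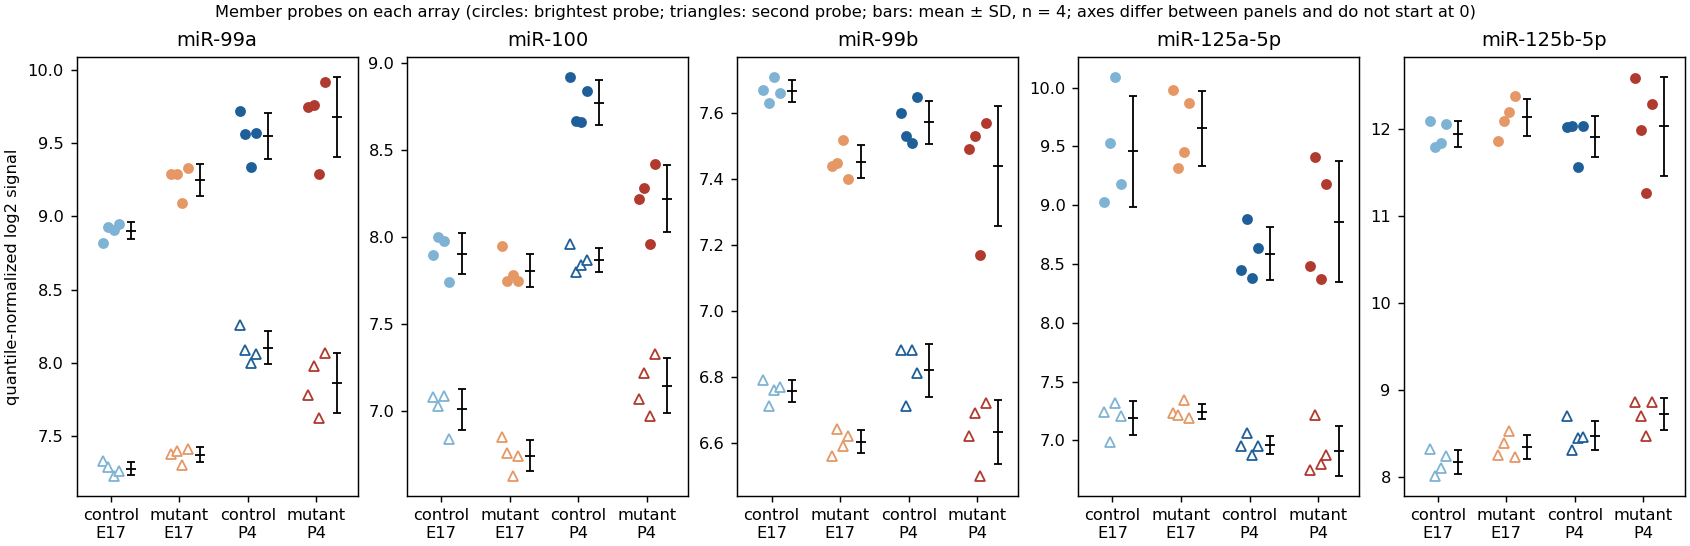
Quantile-normalized log2 signal (vertical axis) of the 5 members on each of 16 arrays in 4 groups, as filled circles for the brightest probe and open triangles for the second probe, with mean ± SD (n = 4) as bars. At the brightest probe miR-100 stood at 8.66 to 8.92 in controls at P4 and at 7.96 to 8.42 in mutants. Brightest-probe arrays of miR-125b-5p overlapped between all groups.

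The comparison at P4 asked which members were altered once myelination had begun in controls and Schwann cells lacked Dicer1. Of the 5 members, 1 was called, miR-100, which was lower in mutants. In wt-P4 nerves the brightest miR-100 probe read 8.92, 8.67, 8.66 and 8.84 on the 4 arrays. In fl-P4 nerves it read 8.22, 8.28, 7.96 and 8.42. Every mutant array was below every control array. The log2 difference was -0.55 (SE 0.0923, 1.46-fold, adjusted p = 0.000234), and the second probe gave -0.72 (adjusted p = 4.25e-06), from 7.80 to 7.96 in controls against 6.97 to 7.33 in mutants. Across all 281 expressed miRNAs 21% were called in this comparison and 48.4% had brightest-probe arrays that did not overlap between groups, so that 1 called and 1 non-overlapping member of 5 was not above the background. miR-100 was lower in mutants in each of 21 alternative ways of processing, with a difference of -1.36 to -0.45, and its brightest probe was called in 18 of them. Without fl-P4 replicate 3, the lowest mutant array, the difference of this probe was under the limit of 0.5 (-0.46), likewise without wt-P4 replicate 1, and the second probe kept miR-100 called in both cases.

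The near-identical miR-99a was not called at P4. Its brightest probe read 9.72, 9.56, 9.34 and 9.57 in controls and 9.75, 9.76, 9.29 and 9.92 in mutants, a difference of 0.13 (95% interval -0.11 to 0.37, adjusted p = 0.372). The second probe of miR-99a lay on the other side of 0 (-0.24, adjusted p = 0.0279, under the limit of 0.5), so the 2 probes gave no common direction. For miR-99b the arrays read 7.60, 7.53, 7.51 and 7.65 in controls and 7.49, 7.53, 7.17 and 7.57 in mutants. The groups overlapped, with a difference of -0.14 (95% interval -0.28 to 0.01, adjusted p = 0.130), and the second probe gave -0.19 (adjusted p = 0.00567), again under the limit.

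Neither miR-125 was called at P4, and both had wide intervals. The brightest miR-125a-5p probe read 8.45, 8.88, 8.38 and 8.64 in controls and 8.48, 9.41, 8.37 and 9.18 in mutants. Mutant replicates 2 and 4 were above all controls and the other two were not, and the difference was 0.27 (95% interval -0.29 to 0.84, adjusted p = 0.428). For miR-125b-5p the arrays read 12.02, 12.04, 11.56 and 12.03 in controls and 12.58, 11.99, 11.26 and 12.29 in mutants. The mutant arrays spanned more than the control arrays, with a difference of 0.12 (95% interval -0.36 to 0.59, adjusted p = 0.694). Without normalization between arrays all 5 members were called lower in P4 mutants, against 32% of all 281 miRNAs called in either direction, by log2 differences of -0.85 for miR-99a, -0.79 for miR-99b, -1.36 for miR-100, -0.52 for miR-125a-5p and -0.60 for miR-125b-5p. The direction of miR-99a, miR-125a-5p and miR-125b-5p at P4 thus turned with the scaling, and that of miR-100 and miR-99b did not turn in any of the 21 alternatives. With cyclic loess normalization miR-125b-5p was called higher in P4 mutants (0.73).

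**Figure D2:**
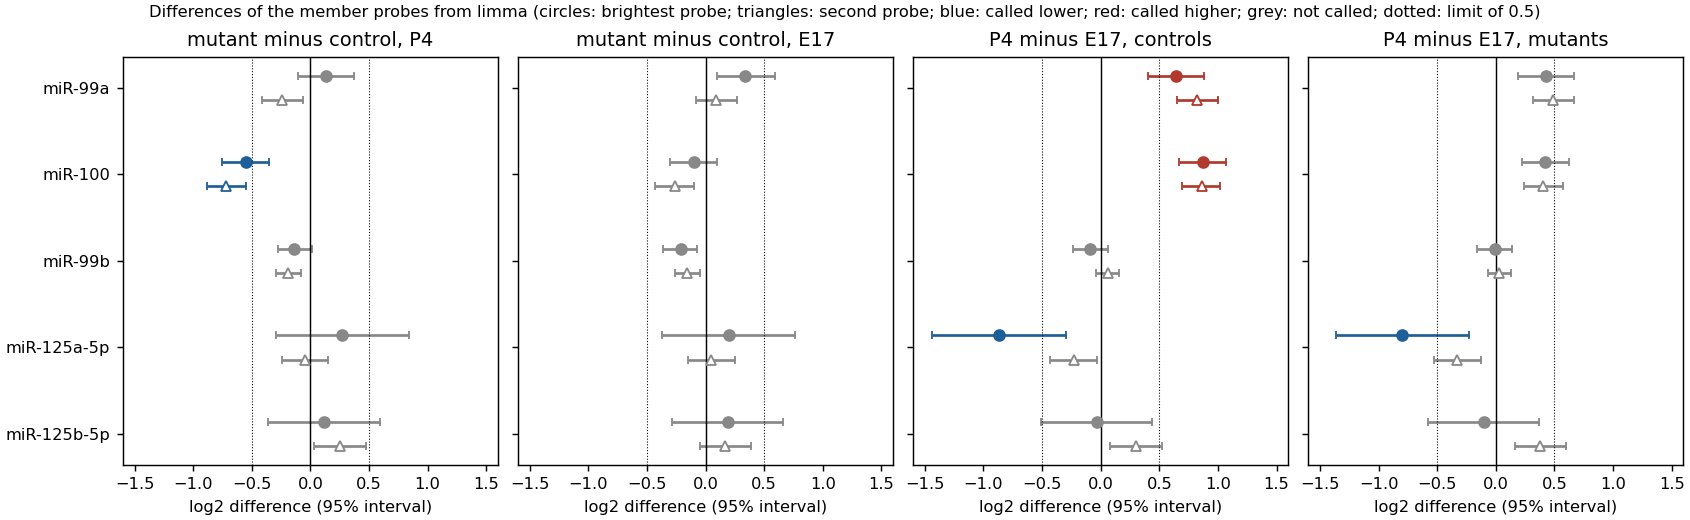
Log2 differences (horizontal axis, with 95% intervals from limma) of both probes of each member in 4 comparisons of 4 arrays against 4. At P4 the miR-100 probes, at -0.55 and -0.72, were called lower in mutants, and no member probe was called between genotypes at E17.

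At E17, before myelin forms, no member was called, against 6.05% of the 281 expressed miRNAs, although 2 of the 5 members had arrays that did not overlap between genotypes, against 24.9% of all. The first was miR-99a, which read 8.82, 8.93, 8.91 and 8.95 in controls and 9.29, 9.29, 9.09 and 9.33 in mutants. Each mutant array was above each control array, with a difference of 0.34 (SE 0.112, adjusted p = 0.0670). The second probe of miR-99a gave 0.09 with overlapping arrays. The other non-overlapping member was miR-99b, at 7.67, 7.63, 7.71 and 7.66 in controls and 7.44, 7.45, 7.52 and 7.40 in mutants. Here the mutants were below the controls, by -0.21 (adjusted p = 0.0662), and the second probe likewise did not overlap (-0.16, adjusted p = 0.0530). In the seed family of miR-99 and miR-100 the E17 differences therefore had both signs.

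For miR-100 the E17 arrays read 7.90, 8.0, 7.98 and 7.74 in controls and 7.95, 7.75, 7.78 and 7.75 in mutants. The groups overlapped and the difference was -0.10 (95% interval -0.30 to 0.10, adjusted p = 0.541), while the second probe gave -0.26 (adjusted p = 0.0416), under the limit of 0.5. miR-125a-5p read 9.03, 9.53, 10.09 and 9.18 in controls and 9.98, 9.32, 9.45 and 9.87 in mutants. miR-125b-5p read 12.09, 11.79, 11.84 and 12.06 in controls and 11.86, 12.09, 12.20 and 12.38 in mutants. Both overlapped between genotypes, with differences of 0.20 (95% interval -0.37 to 0.76) and 0.19 (95% interval -0.29 to 0.66). Without normalization the E17 differences were 0.13 for miR-99a, -0.13 for miR-99b, -0.10 for miR-100, 0.05 for miR-125a-5p and 0.04 for miR-125b-5p, and no member was called, against 2.49% of all.

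The comparison of ages asked what happened to the members from E17 to P4 in control nerves. Of the 5, 3 were called: miR-99a and miR-100 rose and miR-125a-5p fell. The brightest miR-125a-5p probe was called in 18 of 20 alternatives, with differences of -1.06 to 0.50. Without normalization it read higher at P4 (0.50). For miR-100 the arrays went from 7.74 to 8.0 at E17 to 8.66 to 8.92 at P4, a difference of 0.87 (SE 0.0923, adjusted p = 5.03e-06), and the second probe gave 0.86. miR-99a went from 8.82 to 8.95 at E17 to 9.34 to 9.72 at P4, a difference of 0.64 (adjusted p = 0.000462), and its second probe gave 0.82. These 2 miRNAs are encoded on different chromosomes. Both were also higher at P4 under each scaling tried and were called in 19 of 20 alternatives, the exception being a stricter log2 limit of 1. Without normalization they were 2.11 and 2.10 higher at P4, and 4 members were called higher, against 58.7% of all called in either direction. miR-125a-5p went from 9.03 to 10.09 at E17 to 8.38 to 8.88 at P4, a difference of -0.87 (SE 0.264, adjusted p = 0.0163), and its second probe gave -0.23 (adjusted p = 0.0612). Its call was lost without wt-E17 replicate 3, the highest E17 array (adjusted p = 0.0582).

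The 3 called members compare with 20.3% of all 281 miRNAs called between ages in controls, and the same 3 had non-overlapping arrays, against 43.4% of all. miR-99b (difference -0.09, adjusted p = 0.319) and miR-125b-5p (-0.03, adjusted p = 0.924) were not called. The second miR-125b-5p probe gave 0.30 (adjusted p = 0.0307), so the normalized probes of this miRNA differed with age. Without normalization the second probe gave 1.54. Scaling decided the sign for miR-99b and miR-125b-5p, which read 0.93 and 1.66 higher at P4 without normalization, and miR-125b-5p read 0.60 higher (called) when arrays were set to their 75th percentile.

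In mutants 1 of the 5 members was called between ages, against 10.7% of all expressed miRNAs. This was miR-125a-5p, which fell by 0.80 on the log2 scale (adjusted p = 0.0366), with overlapping arrays of 9.32 to 9.98 at E17 and 8.37 to 9.41 at P4. The call was lost without fl-E17 replicate 1 or 4 or fl-P4 replicate 1 or 3, and without normalization the difference was -0.08. miR-100 read 7.75 to 7.95 at E17 and 7.96 to 8.42 at P4, a difference of 0.42 (adjusted p = 0.00412) under the limit of 0.5. It was the 1 member of 5 whose mutant arrays did not overlap between ages, against 29.9% of all. miR-99a differed by 0.43 (adjusted p = 0.0120), also under the limit, and under positive-control scaling the miR-100 and miR-99a differences were -0.30 and -0.04. miR-99b and miR-125b-5p differed by -0.01 and -0.10. Without normalization 3 members were called higher at P4 in mutants, miR-99a by 1.12, miR-100 by 0.86 and miR-125b-5p by 1.03, against 23.1% of all called in either direction, and miR-99b differed by 0.27.

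The difference between the genotype effects at the 2 ages was tested as an interaction. No member was called, against 9.61% of all 281 miRNAs. For miR-100 the genotype effect was more negative at P4 than at E17 by -0.45 (SE 0.131, 95% interval -0.73 to -0.17, adjusted p = 0.0333), and by -0.45 for the second probe (adjusted p = 0.0113), both under the limit of 0.5. Put the other way, miR-100 was 0.87 higher at P4 than at E17 in controls and 0.42 higher in mutants. For the remaining members the interaction was -0.21 for miR-99a, 0.08 for miR-99b, 0.08 for miR-125a-5p and -0.07 for miR-125b-5p, with adjusted p-values of 0.431 to 0.940. The scaling decided these calls. Without normalization 4 of the 5 members were called, all with a more negative genotype effect at P4, against 30.6% of all 281 miRNAs called in either direction. The interaction was then -1.25 for miR-100 (adjusted p = 3.18e-05), -0.99 for miR-99a (adjusted p = 0.00142) and -0.66 for miR-99b (adjusted p = 0.0386), which turned sign. It was -0.64 for miR-125b-5p (adjusted p = 0.0624), called by its second probe, and -0.58 for miR-125a-5p (adjusted p = 0.134), which was not called and turned sign.

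**Figure D3:**
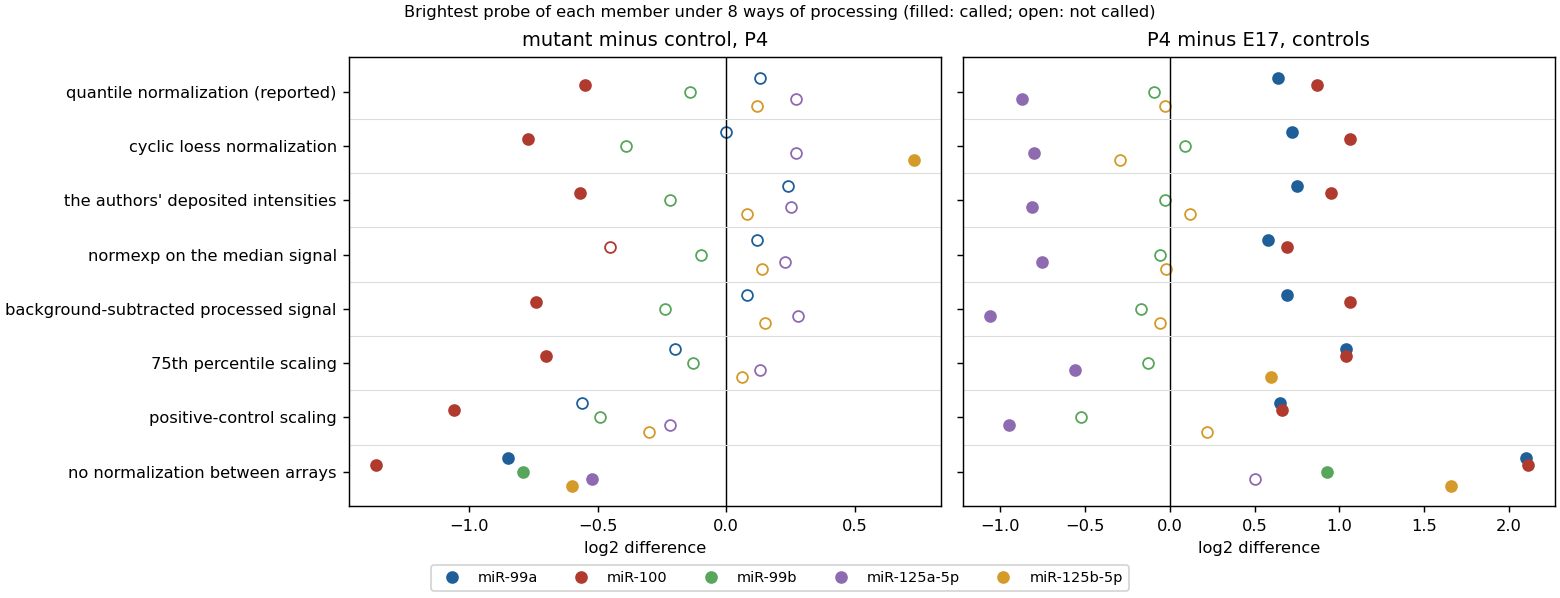
Log2 differences (horizontal axis) of the brightest probe of each member under 8 ways of processing (rows), between genotypes at P4 and between ages in controls. miR-100 lay below 0 at P4 in every row, between -1.36 and -0.45, and without normalization between arrays all 5 members moved to lower values at P4 and to higher values in the comparison of ages.

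The 3 let-7 miRNAs encoded beside the members, which target growth and cell-cycle mRNAs, were not called between genotypes at either age. At P4 let-7a differed by -0.32, let-7c by -0.40 and let-7e by 0.44 (adjusted p = 0.0503), with overlapping arrays. Without normalization all 3 were called lower in P4 mutants, let-7a by -1.23 (adjusted p = 1.43e-08), let-7c by -1.06 (adjusted p = 5.98e-07) and let-7e, whose direction turned, by -0.65 (adjusted p = 0.00163). At E17 the values were -0.67 for let-7a (adjusted p = 0.114) and -0.58 for let-7c (adjusted p = 0.117), both with mutant arrays below all control arrays, and 0.00 for let-7e. With age in controls let-7e fell by 0.60 (adjusted p = 0.0128; without wt-E17 replicate 3 the difference was -0.49, under the limit), the same direction as miR-125a-5p of its cluster, and like it read higher without normalization (1.06). Neither let-7a nor let-7c was called with age, while miR-100 and miR-99a rose. Without normalization let-7a and let-7c were 1.82 and 1.93 higher at P4. Both have a second gene outside the clusters.

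Among the 6 other let-7 miRNAs, let-7f fell in P4 mutants (-0.55, adjusted p = 0.0429), a call lost when any of 10 of the 16 arrays was left out (adjusted p up to 0.103), and let-7b, let-7d and let-7i fell in E17 mutants. Of these, let-7d differed by -0.78 at its brightest probe (adjusted p = 0.0197, up to 0.0541 with wt-E17 replicate 1 or 2 left out), and let-7b and let-7i were called by their second probes (-0.89 and -0.54). The median difference at E17 was 0.19 for the 5 members, -0.58 for the 3 cluster let-7 and -0.52 for the 6 others, against 0.00 for all expressed miRNAs. At P4 the medians were 0.12, -0.32 and -0.33, against 0.06 for all. Without normalization they were 0.04, -0.57 and -0.62 at E17, against 0.19 for all, and -0.79, -1.06 and -1.19 at P4, against -0.19 for all. No background was subtracted from these medians, which compresses differences of dim probes. In background-subtracted total signals the P4 differences were -0.94 for miR-99a, -1.08 for miR-99b, -1.68 for miR-100, -0.60 for miR-125a-5p and -0.59 for miR-125b-5p. All miRNAs together then differed by -0.96. The let-7 probes read near-identical sequences and are not independent of each other. Of the 10 opposite arms of these hairpins, 6 were on the array and 1 was expressed, miR-125a-3p, which was well above background on 1 of 16 arrays and was not called. miR-351, with the miR-125 seed, was well above background on 6 of 16 arrays and was not called. miR-10a shares a run of 11 bases with miR-100 but has another seed. It was lower in mutants at P4 (-0.34, adjusted p = 0.0318) and E17 (-0.40, adjusted p = 0.0446), both under the limit of 0.5 and not called. With age in controls miR-10a was not called either (-0.13). miR-10b was not called at P4 (0.47, adjusted p = 0.00563), and without normalization it differed by -0.25.

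Ratios within an array, taken before normalization, do not depend on how arrays were scaled. No background was subtracted from them, which compresses differences of dim probes. They were computed for 9 pairs of brightest probes and are given as a description, because the pairs were chosen with results known. The log2 ratio of miR-100 to miR-99a was -1.0 to -0.93 on the 4 wt-P4 arrays and -1.52 to -1.41 on the 4 fl-P4 arrays. It did not overlap between genotypes and differed by -0.50, with less miR-100 signal per miR-99a signal in mutants. At E17 the same ratio overlapped, at -1.12 to -0.88 in controls and -1.33 to -1.02 in mutants. Between the control groups it differed by 0.00. These values of the ratio depended on the background. In background-subtracted total signals the genotype differences at E17 were -0.42 for miR-100 and 0.09 for miR-99a. At P4 they were -1.68 and -0.94. With age in controls miR-100 differed by 2.48 and miR-99a by 2.29.

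The ratio of miR-99a to let-7c did not overlap between genotypes at either age. Mir99a lies 721 bases from Mirlet7c-1, but the let-7c signal also includes that of Mirlet7c-2. At E17 it was -2.90 to -2.50 in controls and -2.11 to -2.01 in mutants, a difference of 0.71. At P4 it was -2.66 to -2.51 in controls and -2.50 to -2.34 in mutants, a difference of 0.20. In both, mutant nerves had more miR-99a signal per let-7c signal. The ratio of miR-100 to let-7a was also higher in E17 mutants (by 0.47, no overlap), and at P4 it overlapped (difference -0.13). These 2 differences depended on the background, because miR-100 is much dimmer than let-7a. In background-subtracted total signals the genotype differences at E17 were -0.42 for miR-100 and -0.58 for let-7a. At P4 they were -1.68 and -1.27. Within the cluster on chromosome 17 neither miR-99b nor miR-125a-5p separated the genotypes relative to let-7e at P4 (-0.14 and 0.13) or E17 (0.11 and 0.29). In background-subtracted total signals the P4 differences were -1.08 for miR-99b, -0.60 for miR-125a-5p and -0.71 for let-7e. At E17 they were -0.42, 0.01 and -0.28. With age the ratio of miR-125a-5p to let-7e was lower, by -0.57 in controls and -0.73 in mutants, both without overlap. The ratio of miR-125b-5p to miR-125a-5p was higher at P4 than at E17 by 1.17 in controls and by 1.11 in mutants, without overlap.

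**Figure D4:**
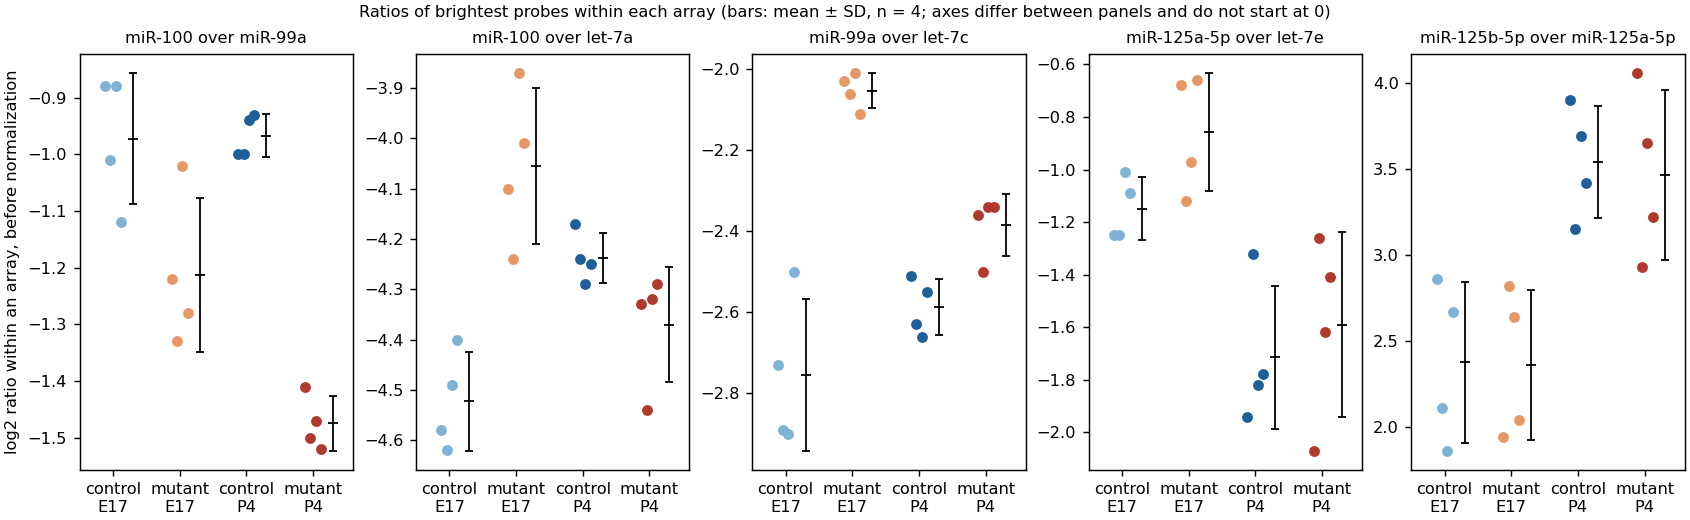
Log2 ratio of 2 brightest probes within each array before normalization (vertical axis) for 5 pairs, by group, with mean ± SD (n = 4) as bars. The ratio of miR-100 to miR-99a stood apart on the 4 P4 mutant arrays, at -1.52 to -1.41, and that of miR-99a to let-7c on the 4 E17 mutant arrays, at -2.11 to -2.01. No background was subtracted.

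The total gene signals of the scanner software are background-subtracted and were not normalized here. They are likewise descriptions, and include any difference in brightness between arrays and slides. The mean log2 signal of 20 positive-control probes was 11.69 to 12.91 on wt-E17 arrays and 11.69 to 12.94 on fl-E17. It was 13.78 to 13.91 on wt-P4 and 13.24 to 13.85 on fl-P4, so that the P4 slide was brighter in these probes too. The part of this brightness in the changes with age was not tested. In P4 mutants miR-100 was at 31.2% of the control level, with 163.2 to 259.8 units against 608.0 to 720.4 in controls. miR-99b was at 47.3%, miR-99a at 52.1%, miR-125a-5p at 65.8% and miR-125b-5p at 66.3%. The partners let-7a, let-7c and let-7e were at 41.6%, 46.4% and 61.0%, and all miRNAs together at 51.3%. Of the 5 members miR-100 thus had the lowest remaining signal. Arrays of mutants and controls overlapped for miR-125a-5p alone, but those of all miRNAs together did not overlap either. The share of all miRNAs without overlap was not computed for this signal.

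At E17 the mutant signals were 106% of control for miR-99a, 74.9% for miR-99b, 74.6% for miR-100, 101% for miR-125a-5p and 103% for miR-125b-5p, all with overlapping arrays. The let-7a and let-7c signals were at 66.8% and 66.4% of control without overlap. From E17 to P4 in controls the signal rose 5.58-fold for miR-100, 4.89-fold for miR-99a, 3.17-fold for miR-125b-5p, 2.18-fold for miR-99b and 1.41-fold for miR-125a-5p, against 2.76-fold for all miRNAs. In mutants the folds were 2.33 for miR-100, 2.40 for miR-99a, 2.05 for miR-125b-5p, 1.38 for miR-99b and 0.923 for miR-125a-5p, against 1.6 for all. As a share of the summed signal of all miRNAs, the 5 members together made up 5.12% ± 0.309 (SD, n = 4) in wt-E17, 5.78% ± 0.247 in fl-E17, 5.91% ± 0.384 in wt-P4 and 6.99% ± 0.208 in fl-P4. The 4 P4 mutant arrays (6.76% to 7.22%) were above all P4 controls (5.51% to 6.28%), and most of that signal was miR-125b-5p.

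**Figure D5:**
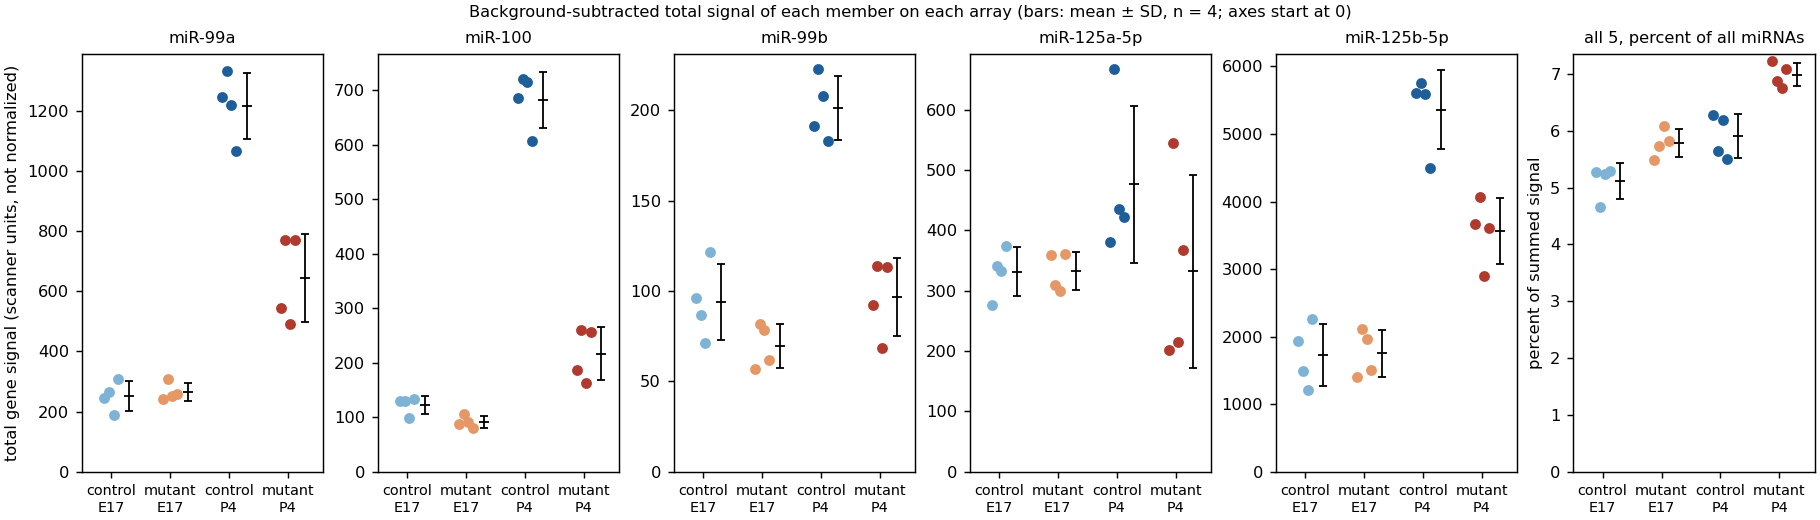
Background-subtracted total gene signal in scanner units (vertical axis, from 0) of each member on each array by group, and the share of the 5 members in the signal of all miRNAs, with mean ± SD (n = 4) as bars. miR-100 fell from 608.0 to 720.4 units in P4 controls to 163.2 to 259.8 in P4 mutants, while the share of all 5 was higher in P4 mutants, at 6.76% to 7.22%.

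Across the 16 arrays the members did not share a common pattern. Pearson correlations of their normalized log2 signals, given as a description because arrays share group and slide, were 0.650 between miR-99a and miR-100 and -0.605 between miR-100 and miR-125a-5p. The 2 members of the compact cluster on chromosome 17, miR-99b and miR-125a-5p, gave 0.194. The 2 probes of one miRNA correlated at 0.972 for miR-100, 0.856 for miR-99a, 0.769 for miR-125a-5p, 0.740 for miR-99b and 0.348 for miR-125b-5p. Of the members, miR-125b-5p thus had the lowest correlation between its normalized probes. Without normalization its brightest and second probes gave similar differences. These were -0.60 and -0.56 between genotypes at P4, 0.04 and 0.10 at E17, 1.66 and 1.54 with age in controls, and 1.03 and 0.88 with age in mutants. The expressed miRNAs most like each member over the 16 arrays were miR-29c, miR-195 and miR-185 for miR-100 (r = 0.939, 0.933 and 0.923). For miR-99a they were miR-152, miR-22 and miR-101a (r = 0.945, 0.901 and 0.898), and for miR-99b let-7f, miR-103 and let-7a (r = 0.856, 0.821 and 0.816). For miR-125a-5p they were miR-370, miR-485* and miR-431 (r = 0.915, 0.899 and 0.891), and for miR-125b-5p miR-26a, miR-23a and miR-10b (r = 0.785, 0.699 and 0.644).

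Markers of myelinating glia, which in this nerve are Schwann cells, and of other cells moved beside these values. The myelinating glia list, miR-338-3p and miR-219, summed to 2785 to 3783 units in P4 controls and 112.1 to 250.0 in P4 mutants. miR-338-3p was called lower, whereas miR-219 was not detected on any array. Of the 6 fibroblast and smooth muscle miRNAs, 4 were called higher in mutants at P4 and 4 at E17, and miR-145 was not detected on any array. Their summed signal was 5502 to 7541 units in P4 controls and 5352 to 10020 in P4 mutants, 2301 to 4237 in E17 controls and 3747 to 4487 in E17 mutants. Of the 3 erythroid miRNAs, 1 was called higher in mutants at each age, with summed signals of 788.5 to 3283 in E17 controls and 2103 to 4787 in E17 mutants. Of the 5 leukocyte miRNAs, 1 was called higher in mutants at each age, and miR-142-5p and miR-150 were not detected on any array. At P4, 1 of 2 endothelial miRNAs was called higher and 1 of 4 neuronal miRNAs lower in mutants. The summed endothelial signal, not normalized, was 1138 to 2381 units in P4 controls and 926.9 to 1512 in P4 mutants. The neuronal sum was 168.0 to 189.2 and 80.93 to 123.9. No muscle or hepatocyte miRNA was called between genotypes. Of all 281 expressed miRNAs, 29 were called higher and 30 lower in mutants at P4, and 10 and 7 at E17. The part of these cells in the members' values was not tested.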

How the data were processed

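Total RNA of sciatic nerve from 16 mice (4 groups of 4, grouped by the labels' genotype and age) was hybridised by the authors to 1-colour (Cy3) Agilent mouse miRNA arrays. The deposited scanner files (Agilent Feature Extraction 10.5.1.1, per the file headers) hold intensity values per spot, not normalized, and a deposited value table holds the authors' processed intensity values, used as an alternative. From the scanner files, the median signal of 13000 non-control spots was set on the log2 scale (the deposited intensity itself is linear), quantile normalized over 16 arrays and averaged per probe without outlier spots (1857 probes). No background was subtracted from it, which compresses differences of dim probes. A miRNA was expressed if the software's detection flag was set on at least 0.5 of the arrays of a group. limma (3.58.1, R 4.3.3) was fitted to all 16 arrays, where the study's methods name a t-test, and the limits were an adjusted p of 0.05 and a log2 difference of 0.5. The text names the members, their cluster let-7, called miRNAs of the let-7 family, related sequences and the 3 most correlated miRNAs. The members and lists were chosen with earlier results of these data known. The scripts were tested on simulated data. Alternatives are given in the closing section.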

Additional observations from a re-analysis of the deposited data

Results flagged for a closer look

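In 40 groups of 4 values (10 member probes in 4 groups), 2 held a value set far from its neighbours, about as many as chance gives at 1 in 20. For miR-100, fl-E17 replicate 1 read 7.95 at the brightest probe, with the other arrays of the group at 7.75 to 7.78. For miR-125b-5p, wt-P4 replicate 3 read 11.56 at the brightest probe, with the others at 12.02 to 12.04. Both values are after quantile normalization, and before it neither array stood apart in this way. For miR-100, fl-E17 replicate 1 then read 7.27, the lowest of its group, with the others at 7.36 to 7.64. For miR-125b-5p, wt-P4 replicate 3 then read 13.05, with the others at 12.72 to 13.07. The genotype effect on miR-100 differed between the ages, with an interaction of -0.45 at the brightest probe (adjusted p = 0.0333) and -0.45 at the second (adjusted p = 0.0113), in limma. The difference was the same at both probes but below the log2 limit of 0.5 used for calls. Without normalization between arrays the interaction at the brightest probe was -1.25 (adjusted p = 3.18e-05).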

How the results depend on the processing

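Member differences under alternatives numbered 900, with the 16 fits that each left out 1 array counted among them. Of these differences, 797 kept their direction and their side of the threshold, 21 lost a call and 22 gained one. A further 50 changed sign with no call on either side and 10 reversed. The cause was not tested. Without normalization between arrays the P4 genotype differences became -0.85 for miR-99a, -0.52 for miR-125a-5p, -0.60 for miR-125b-5p and -0.65 for let-7e. The age differences in controls became 0.93 for miR-99b, 0.50 for miR-125a-5p, 1.66 for miR-125b-5p, 1.82 for let-7a, 1.06 for let-7e, 0.96 for miR-10a and 0.78 for miR-10b. In mutants they became 1.03 for miR-125b-5p and 0.65 for let-7e, and the interactions -0.66 for miR-99b, -0.65 for let-7a, -0.75 for let-7g and -0.72 for miR-10a. Scaling to the 75th percentile turned miR-125b-5p (0.60 in controls, 0.61 in mutants) and let-7a (0.76 in controls) with age, and positive-control scaling turned miR-98 (-0.76), miR-351 (-1.10) and miR-10b (-0.57) with age in mutants.

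Members called at P4 (1) became 5 without normalization, 2 with cyclic loess, 3 without a log2 limit and 0 at a limit of 1. At E17 (0) the count became 1 without a log2 limit. With age in controls (3) miR-125b-5p was also called with the 75th percentile. The count with age in controls became 4 without normalization or without a log2 limit, and 0 at a limit of 1. With age in mutants (1) it became 2 with the 75th percentile or array weights, 3 without normalization, with positive-control scaling, the processed signal, the total gene signal or the deposited intensities, 4 without a log2 limit, and 0 without the filter on absent miRNAs, at a limit of 1, with the methods' t-test adjusted or with a fit of the 2 groups alone. For the interaction (0) it became 4 without normalization, 2 with cyclic loess, and 1 with the 75th percentile, the total gene signal, the deposited intensities or no limit. Leaving out each array in turn gave 1 to 1 members at P4, 0 to 0 at E17, 2 to 3 with age in controls, 1 to 2 with age in mutants and 0 to 1 for the interaction. The interaction on miR-100 was called without fl-E17 replicate 3 or fl-P4 replicate 4.

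The study used littermate pairs, but the labels do not say that replicate numbers mark them. Deviations of same-numbered mice correlated at -0.519 to 0.09 in the 4 pairs at E17, none above 0.1, and at -0.281 to 0.459 in the 4 pairs at P4, 3 of them above 0.1, so whether the numbers pair the P4 mice is not settled. With the replicate block, across ages or within each age, the count was 1 at P4 and 0 at E17, and across ages it was 3 with age in controls and 0 with age in mutants. Over all 681 probes the median moved by over 0.1 under some scalings. At P4 it was -0.09 without normalization, 0.56 with the 75th percentile, 0.20 with positive controls and 0.13 with the processed signal. With age in controls it was 0.42, -0.64 and -1.03 under the first 3. Calls at P4 (29 higher and 30 lower) became 1 and 89 without normalization, 169 and 41 with the 75th percentile, 4 and 44 with positive controls, and 74 and 75 with the processed signal. With age in controls (23 and 34) they became 161 and 4, 36 and 180, 15 and 223, and 73 and 67. Normexp on the mean signal was not run, because the scanner files used here have no such column; normexp on the median signal and the row on the slide as a block were added after seeing the data. All member probes were well above background, but background was not subtracted. The background-subtracted total gene signal gave E17 genotype differences of -0.42 for both miR-99b and miR-100, against -0.13 and -0.10 in the unsubtracted signal without normalization, and -1.68 against -1.36 for miR-100 at P4.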
